A study of Mus musculus with 36 samples.

Results

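Krt5, Krt14 and Krt15, the keratins of the basal epidermis, and Trp63, the gene of the transcription factor p63, were followed through wound repair in the progenies of hair follicle stem cells of mouse tail skin. The 4 genes were taken by name from both count tables, which list 20181 genes for Lrig1 GL (genetically labelled) cells and 22587 for Lgr5 GL cells, 23903 different genes in all. All 4 were present in both tables and passed the filter on low counts in both. At 1 week after the first wound Krt15 was lower than before in both progenies, and in every library of every time point its share of the type I basal keratins was smaller in Lrig1 GL than in Lgr5 GL cells.

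The mice carried an EGFP-ires-CreERT2 allele at Lrig1 or at Lgr5 together with the Rosa26-fl/STOP/fl-tdTomato reporter. Hydroxytamoxifen was put on the tail skin at 6 to 8 weeks of age, 1 week before wounding, so tdTomato marked whichever cells used the driver gene at labelling, and all their later progeny. The 6 groups of each progeny were 0w (labelled, before any wound), the times 1w, 2w, 4w and 8w pw1 (weeks after a first full-thickness punch of 2 mm) and 1w pw2 (1 week after the same site was punched again at 8w). Each group held 3 libraries of a small pool of sorted tdTomato+ cells, 36 libraries in all, and the study's methods give 3 mice a group, of both sexes. All groups, 0w included, carried the same driver, reporter and drug treatment. Mice of later groups were also older, so age and time after wounding cannot be told apart. Cells came from a zone that held the wound bed as well as distant follicles. In such pools, fewer cells of a type and less RNA per cell cannot be told apart.

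Total counts per library were 765252 to 3365666 for Lrig1 GL cells and 1297798 to 6960537 for Lgr5 GL cells, and the 4 genes had at least 164 counts in every library. In Lgr5 GL libraries 1 gene, Gm12415, annotated as a long non-coding RNA, took 12.04% to 52.1% of all counts, against 24 counts over all Lrig1 GL libraries. The mitochondrial share was 3.15% to 14.4% in Lrig1 GL and 1.19% to 3.64% in Lgr5 GL libraries, highest at 8w pw1 in Lrig1 GL cells. The driver genes were checked at 0w, where levels are given as CPM, counts scaled to a common library size (mean ± SD, n = 3). Lgr5 stood at 120 ± 99.9 CPM in Lrig1 GL cells and at 487 ± 107 CPM in Lgr5 GL cells, and Lrig1 at 187 ± 23.2 and 87.3 ± 44.5 CPM. At 2w pw1 and 4w pw1, however, the mean of Lrig1 was higher in Lgr5 GL cells (176 and 171 CPM) than in Lrig1 GL cells (87.1 and 64.4 CPM). Of other cell types, the melanocyte genes Tyrp1, Mlana and Tyr and the immune genes Cd3e, Cd3g, Trdc, Cd207 and Lyz2 were listed in neither table. The summed level of 6 fibroblast genes was 2.22 to 76.9 CPM in Lrig1 GL and 59.3 to 420 CPM in Lgr5 GL libraries, with Lum not listed in the former. The part of these cells in the results was not tested.

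Keratins are the intermediate filament proteins of epithelia, and a filament needs a type I and a type II keratin in equal parts. In basal cells of stratified epithelium the type II partner is Krt5 and the type I partner is chiefly Krt14. Krt15 is another type I basal keratin, known in skin as a marker of the follicle bulge, where slow-cycling stem cells reside. p63 is the transcription factor without which no stratified epidermis forms, and Krt5 and Krt14 are among the genes it is known to activate.

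On the GRCm38 build, Krt14 lies on the minus strand of chr11:100203162-100207548 and Krt15 on the same strand nearby, at chr11:100131758-100135928, within the type I keratin cluster. Krt5 lies on the minus strand of chr15:101707070-101712898, and Trp63 spans chr16:25683763-25892102 on the plus strand. Their merged exons measure 1.758, 1.767, 2.197 and 8.391 kb (Krt14, Krt15, Krt5, Trp63), so levels of different genes are compared below per kilobase, save where reads that Krt16 and Krt14 may share are at issue. The exons of Krt5 overlap Gm44323 on the other strand, and since no strand setting of the counting is given in the sources used here, reads of that overlap cannot be assigned to either gene.

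Most results below turn on counting Krt14 and Krt15 apart, so their likeness is shown. The coding sequences shared 72.3% of 1358 aligned bases, and the longest identical run was 28 bases. The most alike stretch of 90 coding bases (84 identical), from GENCODE M21 transcripts, is printed with the differing bases in capitals, positions counted from the start codon.
Krt14, 367 to 456: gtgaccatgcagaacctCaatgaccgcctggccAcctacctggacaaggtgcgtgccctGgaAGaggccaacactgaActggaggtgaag
Krt15, 298 to 387: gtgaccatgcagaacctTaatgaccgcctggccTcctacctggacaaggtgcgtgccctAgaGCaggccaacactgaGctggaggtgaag
The least alike stretch (54 of 90 identical) shows how far they part elsewhere.
Krt14, 1077 to 1166: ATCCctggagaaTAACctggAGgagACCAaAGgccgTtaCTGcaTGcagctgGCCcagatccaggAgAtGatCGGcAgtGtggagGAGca
Krt15, 1011 to 1100: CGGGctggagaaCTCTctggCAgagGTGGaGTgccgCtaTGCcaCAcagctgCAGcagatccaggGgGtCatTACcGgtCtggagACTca
None of the 50-base words of the Krt15 transcript was found in Krt14, and 0.666% of them occurred in any other transcript, in Krt25 and Krt17. Of the 50-base words of Krt14, 14.4% also occurred in another gene, 188 of 1649 in Krt16 and 55 in Krt17, both keratins of injured or follicular skin. Of those of Krt5, 12.2% did, 150 of 2148 in Krt6a, and of those of Trp63 none. How reads that fit more than 1 gene were counted is not given in the sources used here, so a part of the Krt14 and Krt5 counts is uncertain where Krt16 or Krt6a is high.

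Trp63 starts at either of a pair of promoters, and the proteins differ at their amino end. The first 60 coding bases of each form, start codon in capitals, show that the forms share no beginning, yet the counts per gene add them up.
Trp63, TA start (4 coding transcripts from 25683763): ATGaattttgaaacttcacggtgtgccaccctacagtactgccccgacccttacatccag
Trp63, ΔN start (4 coding transcripts from 25801916): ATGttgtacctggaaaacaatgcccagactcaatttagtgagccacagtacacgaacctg
The levels of Trp63 below therefore belong to the TA and ΔN forms together.

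Krt15 was abundant in unwounded skin of both progenies. In Lrig1 GL cells at 0w its libraries held 5775, 5715 and 3411 CPM, on a scale shared by all 36 libraries. At 1w pw1 they held 160, 1038 and 357 CPM, and at 2w pw1 1527, 949 and 514 CPM. These libraries lay below all 3 of 0w. At 4w pw1 the levels were 1943, 2938 and 1053 CPM, at 8w pw1 1510, 2143 and 1353 CPM, and at 1w pw2 894, 317 and 1060 CPM. No library of a wounded group came back to the range of 0w, and the 1w pw2 libraries lay below those of 8w pw1. Groups without overlap with 0w were common, at 13.9%, 11.3%, 10.7%, 27.6% and 24.2% of all genes from 1w pw1 to 1w pw2, and between 8w pw1 and 1w pw2 at 17.6%.

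In Lgr5 GL cells Krt15 began several fold higher, at 18532, 20227 and 15309 CPM. At 1w pw1 its libraries held 4691, 8643 and 11138 CPM, at 2w pw1 8283, 5507 and 6697 CPM, and at 4w pw1 3264, 5203 and 3394 CPM. All 9 libraries of these times lay below the 0w libraries, where 20%, 13.2% and 14.3% of all genes had groups without overlap. At 8w pw1 the level was 23654, 19629 and 21433 CPM, within or above the 0w range, and at 1w pw2 it was 16178, 11231 and 12317 CPM, overlapping 0w. The plot of levels by library shows the low levels from 1w to 4w pw1 in both progenies and the level at 8w pw1 in Lgr5 GL cells alone back at 0w.

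**Figure D1:**
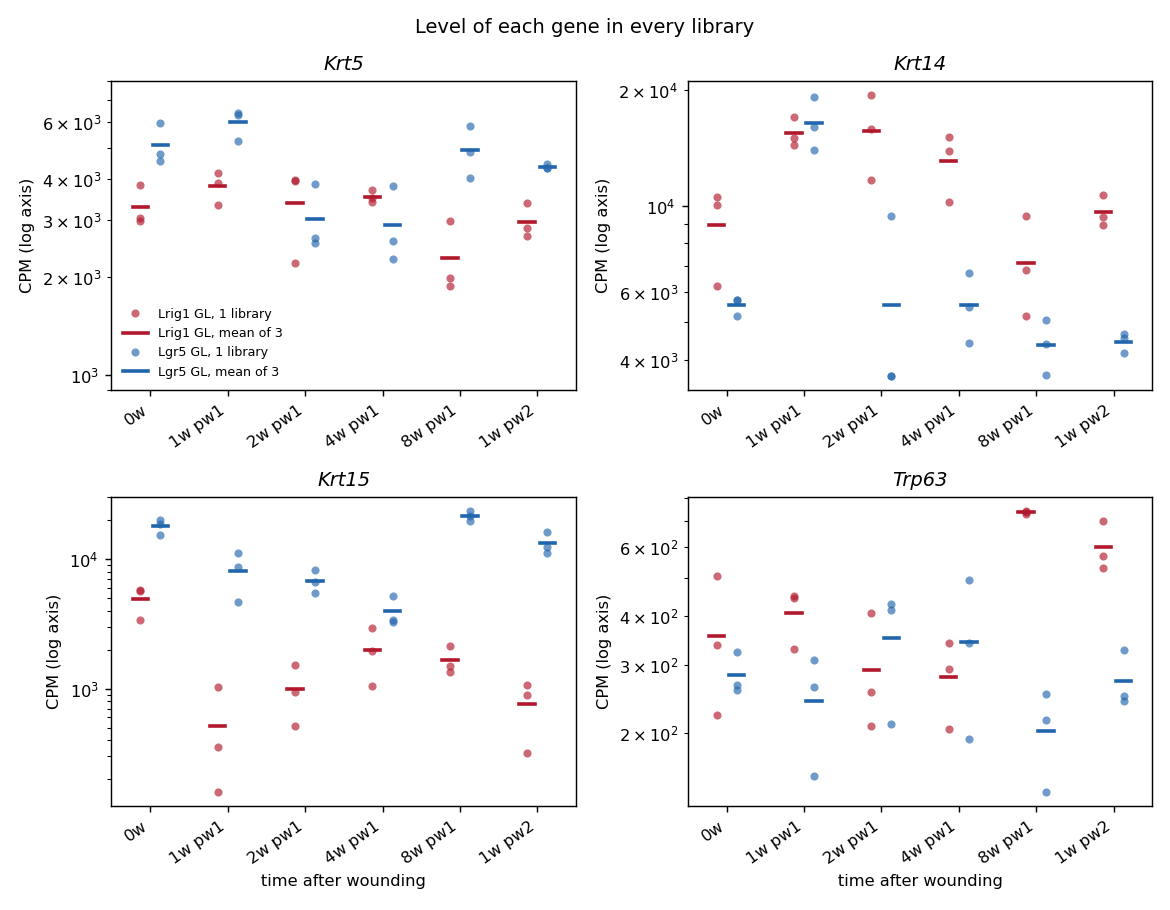
Level of Krt5, Krt14, Krt15 and Trp63 in CPM (log axis) in every library at each time point, Lrig1 GL cells in red and Lgr5 GL cells in blue. Points are single libraries and bars are means of 3. Krt15 at 1w pw1 averages 518 CPM in Lrig1 GL and 8157 CPM in Lgr5 GL cells, against 4967 and 18023 CPM at 0w.

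Tested against 0w with edgeR, Krt15 fell in Lrig1 GL cells at 1w pw1 by 3.27 on the log2 scale (SE 0.62, 9.68-fold lower, adjusted p = 0.0316) and at 1w pw2 by 2.76 (SE 0.61, 6.76-fold lower, adjusted p = 0.0361). It was the only one of the 4 genes called in either comparison, where a call needs an adjusted p under 0.05 and a log2 change over 1, and where 0.217% and 1.23% of 14306 genes were called. At 2w pw1 (-2.33, adjusted p = 0.188), 4w pw1 (-1.35, 0.554) and 8w pw1 (-1.63, 0.111) the difference did not pass. There edgeR called none of the 4 genes, DESeq2 called 1, 0 and 2, the unadjusted p was under 0.05 for 2, 1 and 3, and edgeR called 0%, 0.0419% and 2.82% of all genes. Of all 14306 genes 1498, 1198 and 3277 had an unadjusted p under 0.05 in edgeR. Over the whole time course Krt15 was the 1 of 4 genes that passed (adjusted p = 0.0329, 1.62% of genes called).

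The Krt15 calls rested on few libraries. That at 1w pw1 was lost without 1w pw1 replicate 1 (adjusted p = 0.153) or 3 (0.159), without 0w replicate 1 (0.0987) or 2 (0.0674), and without 2w pw1 replicate b (0.0520), while the log2 change stayed between -4.26 and -2.85. The 1w pw2 call was lost without 1w pw2 replicate 1 (0.0753), 2 (0.20) or 3 (0.0861), or without 0w replicate 1 (0.0884) or 2 (0.0611), with changes between -3.09 and -2.40. With surrogate variables in the model neither passed (-2.01, adjusted p = 0.280, and -1.43, 0.295), the former was lost with scaling by total counts (adjusted p = 0.058) and the latter with a GC trend removed (0.0731). Over the time course 10 of the 18 omissions ended the call: 0w replicates 1 and 2, 1w pw1 replicate 3, 4w pw1 replicate a, and all replicates of 8w pw1 and 1w pw2, with an adjusted p of at most 0.0768.

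Krt15 of Lgr5 GL cells fell at 1w pw1 by 1.16 on the log2 scale (SE 0.28, 2.24-fold lower, adjusted p = 0.0498) and at 4w pw1 by 2.27 (SE 0.29, 4.81-fold lower, adjusted p = 0.0034). At 1w pw1 it was 1 of 2 members called, where 1.29% of 18025 genes were, and at 4w pw1 the only one, where 0.155% were. The 4w pw1 call was lost with scaling by total counts (adjusted p = 0.116), where the totals include Gm12415. It held in each of the 18 omissions of a library (adjusted p at most 0.0331). The 1w pw1 call, next to the threshold, was lost in 15 of them, all but 0w replicate c, 1w pw1 replicate 3 and 4w pw1 replicate a, with an adjusted p of up to 0.156 and changes between -1.50 and -0.87. At 2w pw1 the value was -1.41 (adjusted p = 0.152 in edgeR, 0.00198 in DESeq2), at 8w pw1 0.25 and at 1w pw2 -0.45. In these 3 comparisons edgeR called none of the 4 genes and 0% of all genes, DESeq2 called 1, 0 and 0 members, and 2, 0 and 0 had an unadjusted p under 0.05. Of all 18025 genes 1584, 1070 and 1157 had an unadjusted p under 0.05 in edgeR. Over the time course Krt15 (adjusted p = 0.00201) and Krt14 (0.00746) were the 2 of 4 genes called, against 1.13% of all genes.

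Other bulge genes were measured beside Krt15. Over 12 bulge and lower follicle genes, among them the stem cell surface protein Cd34 and the transcription factor Sox9, the summed level in Lrig1 GL libraries ranged from 1862 to 3136 CPM at 0w and from 727 to 1356 CPM at 1w pw1. In Lgr5 GL libraries it ranged from 3010 to 5255 CPM at 0w and from 1033 to 2397 CPM at 1w pw1, and was back at 3343 to 4825 CPM at 8w pw1. The fitted change at 1w pw1 lay under 0 for all 12 genes in both progenies, with a median of -1.58 in Lrig1 GL cells (all genes -0.04) and -1.12 in Lgr5 GL cells (all genes -0.08). Few passed in edgeR. For the Lrig1 progeny at 1w pw1 it called 0 of the 12 (all genes 0.217%) and DESeq2 called 1. There 4 had an unadjusted p under 0.05, as had 1581 of all 14306 genes. For the Lgr5 progeny edgeR called 1 of 12 (all genes 1.29%) and DESeq2 called 6. Here 7 had an unadjusted p under 0.05, as had 3353 of all 18025 genes. In Lrig1 GL cells the summed level stayed under that of 0w, at 1103 to 1515 CPM at 8w pw1 and 691 to 1100 CPM at 1w pw2. The median change at 8w pw1 was -0.22, with 4 of the 12 above 0, where Krt15 stood at -1.63. Sox9 fell in Lgr5 GL cells at 1w pw1 (log2 -1.33, adjusted p = 0.0380) and in Lrig1 GL cells at 1w pw2 (-1.90, 0.0363). Dkk3, a secreted protein of the bulge, fell in Lgr5 GL cells at 4w pw1 (-2.67, 0.0140). The part of a changed mix of bulge and other cells in the Krt15 result was not tested.

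Krt14, the main type I basal keratin, was among the most abundant mRNAs throughout: per kilobase its mean ranked between 2 and 10 among the genes with an annotated length in every group. In Lgr5 GL cells its libraries held 5726, 5711 and 5201 CPM at 0w and 19147, 13931 and 16010 CPM at 1w pw1. At 2w pw1 they held 9414, 3631 and 3628 CPM, at 4w pw1 6698, 5484 and 4419 CPM, at 8w pw1 5053, 3655 and 4385 CPM, and at 1w pw2 4665, 4154 and 4547 CPM. The rise was thus seen at 1 time point, and 1 library of 2w pw1 still lay well above its pair. The second wound brought no such rise, and all libraries of 8w pw1 and 1w pw2 lay just below those of 0w, as 11.5% and 12.3% of all genes lay to one side of it.

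Krt14 of Lgr5 GL cells rose at 1w pw1 by 1.53 on the log2 scale (SE 0.29, 2.89-fold, adjusted p = 0.0198). The call was lost without 0w replicate a (adjusted p = 0.0644) or b (0.0749) or 1w pw1 replicate 1 (0.0800), with changes from 1.42 to 1.64, and with surrogate variables in the model (0.101). Krt16, which shares part of its sequence with Krt14, had a mean of 175 CPM at 0w and 835 CPM at 1w pw1 in these cells, against 5546 and 16363 CPM of Krt14. These are CPM and not per kilobase, since reads counted for the wrong gene are at issue.

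Krt14 of Lrig1 GL cells held 10532, 6202 and 10062 CPM at 0w, 14353, 15018 and 17048 CPM at 1w pw1, and 15831, 19370 and 11699 CPM at 2w pw1. All libraries of 1w and 2w pw1 lay above those of 0w, as 13.9% and 11.3% of all genes lay to one side of it. At 4w pw1 the values were 10267, 15092 and 13886 CPM, at 8w pw1 5187, 6811 and 9402 CPM, and at 1w pw2 10677, 9345 and 8946 CPM, each overlapping 0w. The differences at 1w pw1 (0.79, SE 0.26, adjusted p = 0.239) and 2w pw1 (0.80, SE 0.26, adjusted p = 0.304) did not pass, nor did the time course (adjusted p = 0.0556). Whether the change of Krt14 from 0w to 1w pw1 differed between the progenies was tested in 1 model of all libraries: the difference was -0.77 (SE 0.40, adjusted p = 0.358).

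**Figure D2:**
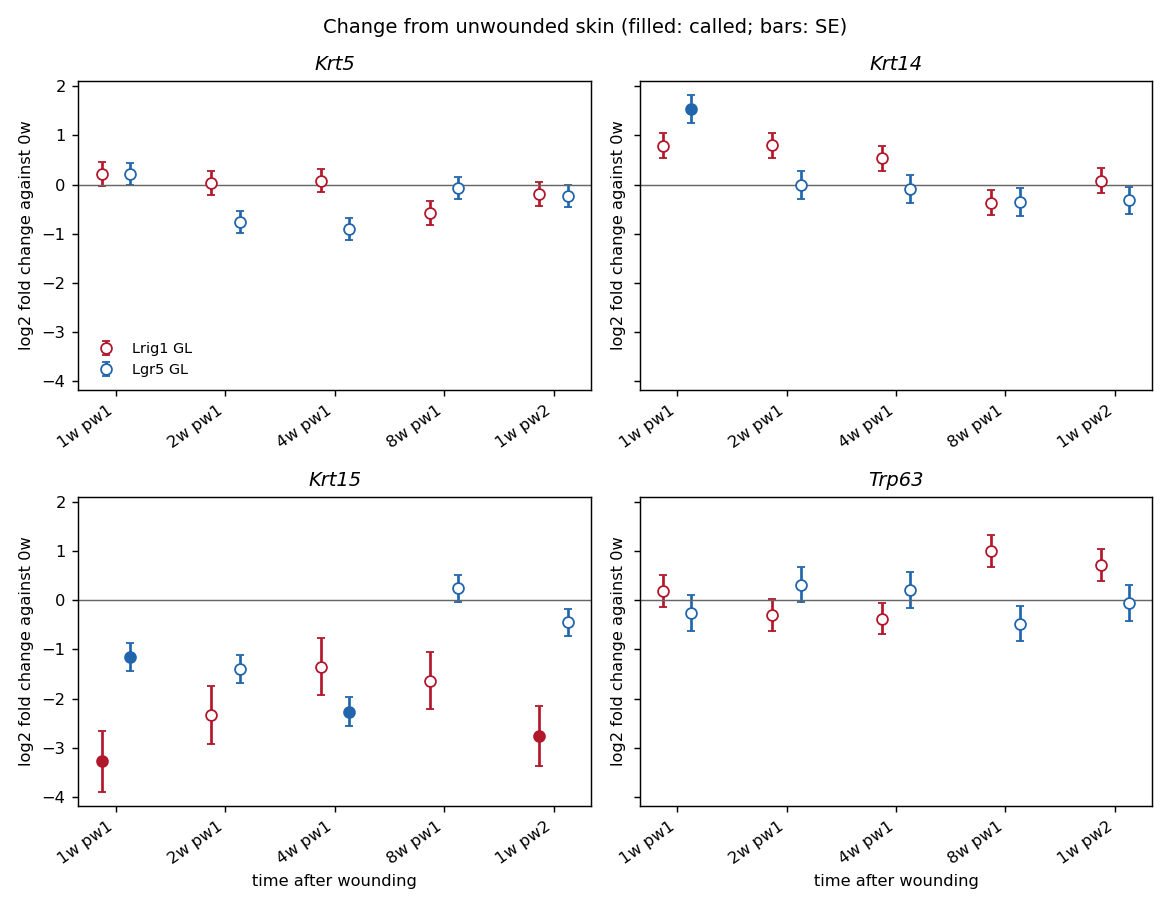
Change of each gene from 0w (log2 fold change, bars are SE) at the 5 later time points in Lrig1 GL (red) and Lgr5 GL cells (blue). Filled symbols passed an adjusted p under 0.05 with a change over 1: Krt15 at 1w pw1 in both progenies, at 1w pw2 in Lrig1 GL and at 4w pw1 in Lgr5 GL cells, and Krt14 at 1w pw1 in Lgr5 GL cells.

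Since Krt14 and Krt15 are alternative type I partners, their balance was read inside each library, where scaling between libraries plays no part. Per kilobase, Krt15 made up 35.3%, 47.8% and 25.2% of Krt14 plus Krt15 in the Lrig1 GL libraries at 0w. At 1w pw1 the share was 1.10%, 6.43% and 2.04%. It then averaged 5.86% ± 2.52 (SD, n = 3) at 2w pw1, 13.0% ± 5.21 at 4w pw1 and 19.6% ± 6.17 at 8w pw1, and 7.17% ± 3.67 at 1w pw2. No library after the first wound exceeded 23.8%, and the lowest at 0w was 25.2%.

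In Lgr5 GL libraries the share was 76.3%, 77.9% and 74.5% at 0w and 19.6%, 38.2% and 40.9% at 1w pw1. It averaged 57.2% ± 9.39 at 2w pw1, 41.5% ± 8.11 at 4w pw1, 83.2% ± 0.98 at 8w pw1 and 74.5% ± 2.66 at 1w pw2. The libraries of 8w pw1 all lay above those of 0w, and those of 1w pw2 overlapped 0w. Thus all Lgr5 GL libraries at 1w pw1 lay below 0w, and those at 1w pw2 did not.

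With 3 libraries against 3, the exact permutation test on log2 ratios cannot go below p = 0.1, so none of the 40 comparisons of a ratio with 0w could pass. That floor is reached whenever the libraries of both groups do not overlap. Of the 40, which share 0w libraries and genes and so are not independent, 23 reached it (exact permutation p = 0.1, adjusted p = 0.174). Among them was the ratio of Krt15 to Krt14 in Lrig1 GL cells at all 5 times, 21.9-fold lower than at 0w at 1w pw1, 9.38-fold at 2w, 3.94-fold at 4w and 2.35-fold at 8w pw1, and 7.98-fold at 1w pw2. For the Lgr5 progeny it was at the floor at 4 of 5 times, lower at 1w, 2w and 4w pw1 and higher at 8w pw1 (log2 0.62).

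**Figure D3:**
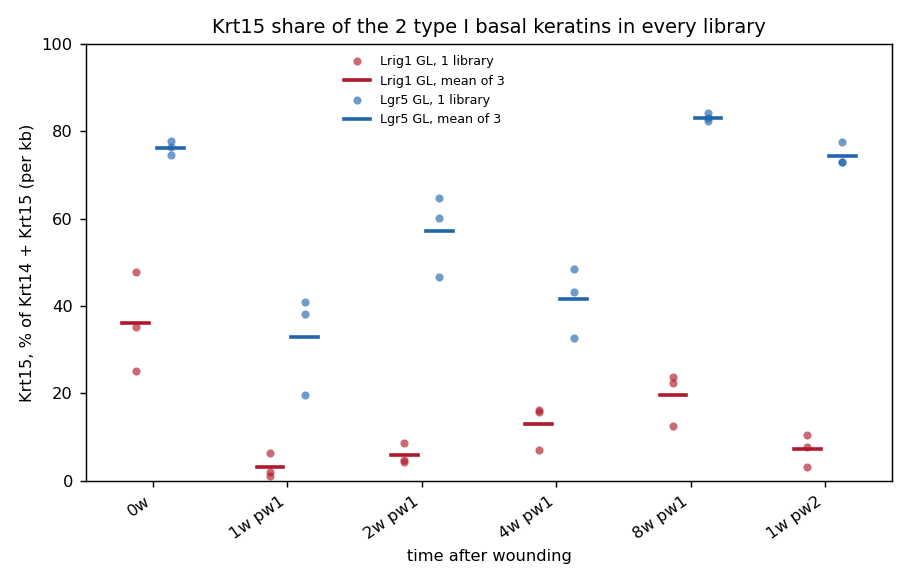
Krt15 as a percentage of Krt14 plus Krt15 (CPM per kb) in every library, Lrig1 GL cells in red and Lgr5 GL cells in blue. Points are libraries and bars are means of 3. Lrig1 GL libraries run from 1.10% to 47.8% and lie below the Lgr5 GL libraries of the same time point at each of the 6 time points.

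The sum of the type I partners was also set against the type II partner. Per kilobase, Krt14 plus Krt15 was 4.24 to 6.82 times Krt5 in the 12 group means and 3.27 to 8.85 times in single libraries. In the Lgr5 progeny it was 5.80 ± 0.72 (SD, n = 3) before wounding, then 5.15 ± 0.63 at 1w pw1 and 6.82 ± 1.94 by 8w pw1, while the Krt15 share went from 76.2% to 32.9% and 83.2%. The ratio in Lrig1 GL cells was 5.41 ± 1.48 at 0w and 5.27 ± 0.43 at 1w pw1, with a share of 36.1% and 3.19%. The 3 keratins together took 0.789% to 4.01% of the counts outside Gm12415, least at 8w pw1 in Lrig1 GL cells (1.09% ± 0.28) and most at 8w pw1 in Lgr5 GL cells (3.84% ± 0.18).

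Krt5, the type II partner, was not called against 0w in either progeny. In Lrig1 GL cells it held 2983, 3837 and 3036 CPM at 0w, and the group means at later times lay between 2284 CPM at 8w pw1 and 3806 CPM at 1w pw1. The 8w pw1 libraries (1880, 1994 and 2976 CPM) lay just under those of 0w, a difference that did not pass (-0.58, SE 0.24, adjusted p = 0.165). At that time 27.6% of all genes had no overlap with 0w. The time course had an adjusted p of 0.284.

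Krt5 of Lgr5 GL cells held 4556, 5935 and 4783 CPM at 0w and 5234, 6314 and 6384 CPM at 1w pw1. At 2w pw1 it held 3864, 2551 and 2630 CPM and at 4w pw1 3802, 2576 and 2273 CPM, all below 0w. By 8w pw1 (4038, 5808 and 4845 CPM) it overlapped 0w again, and at 1w pw2 (4317, 4334 and 4466 CPM) it lay just below. None of these passed against 0w: the change was -0.76 at 2w pw1 (SE 0.22, adjusted p = 0.322) and -0.91 at 4w pw1 (SE 0.22, adjusted p = 0.13). At 2w pw1, 4w pw1 and 1w pw2, 13.2%, 14.3% and 12.3% of all genes had no overlap with 0w. Over the time course Krt5 had an adjusted p of 0.0493 but no change over 1 on the log2 scale, the largest being 0.91 in size, and was not called.

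Between 1w and 4w pw1 in Lgr5 GL cells all 3 keratins fell: Krt5 by 1.11 on the log2 scale (SE 0.23, adjusted p = 0.0192), Krt14 by 1.62 (SE 0.29, adjusted p = 0.0112) and Krt15 by 1.10 (SE 0.28, adjusted p = 0.0433). Trp63 did not pass (0.47, adjusted p = 0.452). These 3 of 4 calls compare with 3.15% of 18025 genes, a call here needing only the adjusted p under 0.05. The Krt5 call was lost without 4w pw1 replicate b (adjusted p = 0.0690) or c (0.102) and the Krt14 call without 4w pw1 replicate c (0.0710). The Krt15 call, next to the threshold, was lost in 13 of 18 omissions (adjusted p up to 0.173): 0w replicates a and b, 1w pw1 replicates 2 and 3, 2w pw1 replicate c, 1w pw2 replicates 2 and 3, and all of 4w and 8w pw1. With surrogate variables none of the 3 passed (Krt5 0.371, Krt14 0.493).

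Of 16 genes of the basal layer in Lgr5 GL cells (integrins, Col17a1 and others), 4 fell from 1w to 4w pw1 and none rose. Among them were Lamb3, of the basement membrane (-1.42, adjusted p = 0.0228), and the integrins Itga6 (-1.29, 0.0266) and Itgb1 (-1.27, 0.0346). The list's median was -1.08, against 0.10 over all genes, and edgeR called 3.15% of all genes in this comparison. Over the same interval 6 of 26 other keratins rose and 1 fell, with a median of 0.80. Among those that rose were Krt28 (8.17, adjusted p = 0.0010), Krt25 (8.35, 0.0112), Krt71 (7.82, 0.0152) and Krt27 (5.07, 0.0344), keratins of the inner root sheath of growing follicles, and Krt75 (5.61, 0.0117) of the companion layer. Krt6b, of wounded epidermis, fell (-2.64, 0.0344). The part of a changed mix of cells in the fall of the basal keratins was not tested.

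Comparing the second wound with the first at the same week asks whether a healed skin answers differently. Krt14 of Lgr5 GL cells stood lower at 1w pw2, relative to 1w pw1, by 1.85 on the log2 scale (SE 0.29, 3.62-fold lower, adjusted p = 0.0111), without overlap between the libraries (24.9% of genes). It was the 1 member of 4 called, against 0.266% of genes. The call was lost without 1w pw1 replicate 1 (adjusted p = 0.0573), 1w pw2 replicate 2 (0.0783) or 1w pw2 replicate 3 (0.0688), with scaling by total counts (0.0573), with surrogate variables (0.171), and in the libraries with known replicate numbers alone (0.101). Krt15 was higher without passing (0.71, SE 0.28, adjusted p = 0.219). In Lrig1 GL cells edgeR called none of the 4 genes between 1w pw2 and 1w pw1, 1w pw2 and 8w pw1, or 4w and 1w pw1 (0 of 12 tests, where 0%, 0.00699% and 0% of genes were called). DESeq2 called none of the 12 either, and 2 had an unadjusted p under 0.05: Krt14 at 1w pw2 against 1w pw1 (-0.71) and Krt15 at 4w against 1w pw1 (1.92). Between 8w pw1 and 1w pw2 no member was called in Lgr5 GL cells by edgeR or DESeq2 (0% of genes), and 1 of 4 had an unadjusted p under 0.05, Krt15 at -0.70. The difference between the progenies in the change of Krt14 from 1w pw1 to 1w pw2 was 1.20 (SE 0.40, adjusted p = 0.179), which did not pass.

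Trp63 was called in no comparison within Lgr5 GL cells. Its libraries held 265, 324 and 258 CPM at 0w, 308, 262 and 156 CPM at 1w pw1, and 212, 415 and 429 CPM at 2w pw1. At 4w pw1 they held 194, 341 and 493 CPM, at 8w pw1 142, 252 and 216 CPM, and at 1w pw2 243, 326 and 249 CPM. The groups overlapped 0w except at 8w pw1, where all lay below it and 11.5% of all genes had no overlap. No change against 0w exceeded 0.48 in size, and the time course gave 0.625 as adjusted p.

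Trp63 of Lrig1 GL cells held 336, 507 and 223 CPM at 0w, 449, 330 and 445 CPM at 1w pw1, 209, 255 and 407 CPM at 2w pw1, and 292, 205 and 341 CPM at 4w pw1. At 8w pw1 it held 740, 731 and 744 CPM and at 1w pw2 571, 700 and 532 CPM, above every library of the earlier groups. Against 0w alone, 27.6% and 24.2% of all genes had groups without overlap at these times. The difference from 0w was 1.00 at 8w pw1 (SE 0.32, 1.99-fold, adjusted p = 0.0835) and 0.72 at 1w pw2 (SE 0.32, adjusted p = 0.245), and neither passed. Without 0w replicate 2, the highest of its group, the former was 1.34 (adjusted p = 0.0403), and DESeq2 gave 1.05 (adjusted p = 0.0180). Of 18 omissions of a library 17 left it uncalled in edgeR, with changes down to 0.74 and an adjusted p of up to 0.220. Of the 7 other settings 6 left it uncalled, with an adjusted p of up to 0.631. Other measures differed along with Trp63. The mitochondrial share was 4.58% ± 1.24 (SD, n = 3) at 0w and 12.8% ± 1.77 at 8w pw1, and Trp63 has 45.3% GC in its exons, against 55.7% to 57.0% in the keratins. With a trend on GC content removed, the difference at 8w pw1 was 0.37 (adjusted p = 0.550).

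The p63 protein acts through its targets, so 24 genes it is known to activate or repress were followed. Counts of a list over the time course, here and for the lists after it, stand beside 1.62% (Lrig1 GL) and 1.13% (Lgr5 GL) of all genes called. Over the Lrig1 GL time course edgeR called 0 of the 23 tested, with 10 at an unadjusted p under 0.05 and 5 called by DESeq2. At 8w pw1 in these cells, where Trp63 was highest, edgeR called 0 of the 23 against 0w (all genes 2.82%) and DESeq2 called 4. There 11 had an unadjusted p under 0.05, as had 3277 of all 14306 genes. Of the 23, 15 lay above 0 and 8 below, with a median of 0.38 (all genes -0.01). At 1w pw2 the median was -0.09, with 11 above 0 and 12 below. Over the Lgr5 GL time course 6 of 24 passed: Fras1, Dlx3, Gata3, Dst, Col17a1 and Cdkn1a. At 1w pw1 in Lgr5 GL cells 3 fell and none rose: Fras1, of the basement membrane (-3.21, adjusted p = 0.0136), Gata3, a transcription factor of the inner root sheath (-1.79, 0.0136), and Dst, which ties keratin to hemidesmosomes (-1.52, 0.0327). The list's median was -0.43, against -0.08 over all genes, and edgeR called 1.29% of all genes in this comparison. From 1w to 4w pw1 Fras1 (4.04, 0.00221), Dlx3 (5.81, 0.00491) and Gata3 (1.53, 0.0129) rose, while Itga6 (-1.29, 0.0266) and the desmosomal Perp (-1.01, 0.0479) fell, with Trp63 at 0.47. Of all genes 3.15% were called over that interval.

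Of 17 genes for partners of keratin filaments, 2 passed over the time course in each progeny. For the Lrig1 progeny these were the desmosomal genes Dsp and Dsc3, and in Lgr5 GL cells the plakin genes Ppl and Dst. Dsp, the desmoplakin gene that anchors keratin at desmosomes, rose in Lrig1 GL cells at 8w pw1 (2.18, adjusted p = 0.0160) and 1w pw2 (1.92, 0.0258). At these times 1 and 2 of the 17 were called, against 2.82% and 1.23% of all genes. Of 18 tested factors known from keratin promoters, 1 passed in each progeny: Junb in Lrig1 GL and Jun in Lgr5 GL cells. Of the other keratins, 4 of 23 passed over the Lrig1 GL time course (Krt6b, Krt16, Krt6a, Krt80) and 5 of 26 over that of Lgr5 GL (Krt28, Krt25, Krt71, Krt73, Krt6b). Krt6b, a keratin of wounded epidermis, rose at 1w pw1 in Lrig1 GL (4.07, adjusted p = 0.0157) and in Lgr5 GL cells (2.57, 0.0454).

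Of the remaining lists, the basal layer had 0 of 16 and 4 of 16 genes called over the time course (Lrig1 GL, then Lgr5 GL), the suprabasal layer 1 of 11 and 2 of 11, and the bulge 0 of 12 and 3 of 12. The junctional zone had 0 of 9 in both and the sebaceous gland 1 of 8 and 0 of 8. At an unadjusted p under 0.05 the lists with none called held 8 (basal layer), 5 (bulge) and 5 (junctional zone) genes in Lrig1 GL cells, and 4 (junctional zone) and 2 (sebaceous gland) in Lgr5 GL cells. DESeq2 called 7, 4 and 4, and 4 and 0. For melanocytes, immune cells, fibroblasts, endothelial cells and Merkel cells none of the 1 to 6 tested genes a list was called by edgeR. DESeq2 called none of these in Lrig1 GL cells and 2 melanocyte, 2 immune and 1 fibroblast gene in Lgr5 GL cells, with 0 to 3 a list at an unadjusted p under 0.05.

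Levels were then compared between the progenies at each time point, in 1 model over the 13980 genes kept in both tables. Progeny, mouse line and count table cannot be told apart here. Of 24 tests 11 passed, a call needing an adjusted p under 0.05. Krt15 was lower in Lrig1 GL cells at 0w (-1.86, SE 0.49, 3.63-fold lower, adjusted p = 0.0308), 1w pw1 (-3.98, SE 0.53, 8.80e-05), 2w pw1 (-2.78, SE 0.50, 0.00293), 8w pw1 (-3.69, SE 0.52, 8.52e-05) and 1w pw2 (-4.13, SE 0.54, 17.5-fold lower, 1.49e-04), and did not pass at 4w pw1 (-1.0, SE 0.48, 0.255). Krt14 was higher in Lrig1 GL cells at 2w pw1 (1.49, SE 0.29, adjusted p = 0.0049), 4w pw1 (1.24, SE 0.29, 0.0137) and 1w pw2 (1.12, SE 0.29, 0.0149). At these 6 time points, from 0w to 1w pw2, 1, 1, 2, 1, 3 and 3 of the 4 genes were called, against 3.12%, 4.3%, 1.91%, 3.42%, 14.4% and 7.69% of all genes. With surrogate variables 1 of the 24 was left, Krt15 at 1w pw1 (-3.17, adjusted p = 0.0428), and with scaling by total counts Krt15 at 0w was lost (-1.25, 0.148).

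Krt5 was lower in Lrig1 GL cells at 8w pw1 (-1.10, SE 0.23, adjusted p = 0.00257), and Trp63 was higher there at 8w pw1 (1.86, SE 0.35, 3.63-fold, adjusted p = 8.12e-04) and 1w pw2 (1.14, SE 0.34, 0.0359). With the trend on GC content removed, Krt5 at 8w pw1 (-0.17, adjusted p = 0.771) and Trp63 at 1w pw2 (0.67, 0.334) no longer passed, while Trp63 at 8w pw1 did (1.24, 0.0233). Leaving out 1 library ended the call of Krt15 at 0w for Lrig1 0w replicates 1, 2 and 3 and Lgr5 0w replicates a and b (adjusted p up to 0.107). It ended that of Krt14 at 4w pw1 for Lrig1 replicate b and Lgr5 replicate c (up to 0.0924), that of Krt14 at 1w pw2 for Lrig1 replicate 2 and Lgr5 replicates 2 and 3 (up to 0.0636), and that of Trp63 at 1w pw2 for each of its 6 libraries (up to 0.162).

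**Figure D4:**
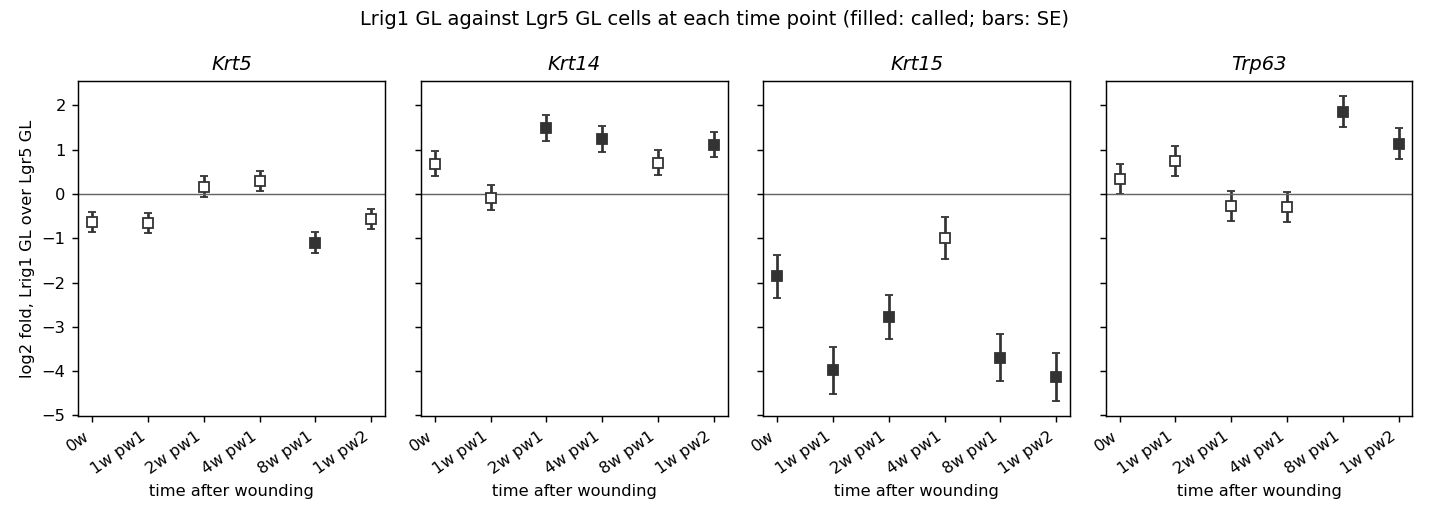
Log2 fold of Lrig1 GL over Lgr5 GL cells for each gene at each time point (bars are SE). Filled symbols passed an adjusted p under 0.05, 11 of 24. Krt15 lies between -4.13 and -1.0 at all 6 time points.

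Ratios between the genes were compared within libraries over all time points. The ratio of Krt15 to Krt14 counts was 14.9-fold lower in Lrig1 GL than in Lgr5 GL cells (log2 difference -3.90 over 18 against 18 libraries, adjusted p = 1.3e-05), with no overlap at 6 of 6 time points. The permutation test was two-sided, labels were permuted within time points, and p = 1e-05 is the smallest that 100000 resamples can give. The ratio of Krt15 to Krt5 was 6.11-fold lower, with no overlap at 6 of 6 time points, and that of Krt14 to Krt5 was 2.44-fold higher, with no overlap at 5 of 6, each with the same permutation p. The ratio of Trp63 to Krt14 differed by -0.27 (permutation p = 0.37). For the 3 keratin ratios no omission of a library raised p above that smallest value. Each of these ratios follows from the others, so they are not independent results. How many other pairs of genes part the progenies without overlap was not computed.

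Whether the genes changed differently in the progenies was tested for 4 intervals, 0w to 1w pw1, to 8w pw1 and to 1w pw2, and 1w pw1 to 1w pw2. With edgeR 0 of 16 tests passed, against 0.0572%, 1.5%, 0.207% and 0.107% of genes, with 5 at an unadjusted p under 0.05. A likelihood ratio test in edgeR called 1 and DESeq2 called 2. The largest in size were Krt15 from 0w to 1w pw2 (-2.27, SE 0.67, adjusted p = 0.129; 0.0358 in DESeq2), to 1w pw1 (-2.12, SE 0.67, adjusted p = 0.140) and to 8w pw1 (-1.83, SE 0.67, adjusted p = 0.138), and Trp63 from 0w to 8w pw1 (1.53, SE 0.48, adjusted p = 0.0848).

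As a description with no test, since libraries of 1 group share their time point, genes were ranked by likeness to each member. Listed are those whose log2 CPM over the 18 libraries of a progeny had the highest Pearson's r. Among those for Krt14 were Eno1 (0.92) in Lrig1 GL and Pkm (0.94) and Tpm2 (0.92) in Lgr5 GL cells, and Eno1 was among the first 5 in both. For Krt15 they were Tmbim1 (0.88) and Stim1 (0.86) in Lrig1 GL, and Sbsn (0.92) and Zfp652 (0.91) in Lgr5 GL cells. For Trp63 in Lrig1 GL cells they were Akap13 (0.93), Nmt2 (0.92), Trpm7 (0.92) and Malat1 (0.91), the last a nuclear non-coding RNA, and in Lgr5 GL cells Rock2 and Bmp1 (both 0.85). For Krt5 they were Nop2 (0.84) and Clic1 (0.88). Among the members themselves, Krt5 and Krt14 had an r of 0.65 (Lrig1 GL) and 0.50 (Lgr5 GL), Krt14 and Krt15 of -0.38 and -0.23, and Trp63 and Krt14 of -0.66 and -0.35.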

How the data were processed

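Mini-bulk RNA-seq (full-length cDNA, a Smart-seq2 type protocol) was analysed for 36 libraries of sorted tdTomato+ tail epidermal cells. The authors trimmed reads with Trim Galore v0.5.0, aligned them to mm10 (GRCm38) with HISAT2 and counted exons by gene name (GENCODE M20) with featureCounts, and deposited raw counts per gene in 1 table for each progeny. Column names gave the labelled replicate number for 15 libraries; the other 21 were assigned to a group only, and their replicates are called a, b and c.

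Counts were tested with edgeR v4.0.16 (R v4.3.3): filterByExpr (minimum count 10), TMM, prior count 0.125, quasi-likelihood F-tests with Benjamini-Hochberg adjustment over 14306 (Lrig1 GL), 18025 (Lgr5 GL) or 13980 genes (all libraries), 1 fit per table and no block. The SE of an edgeR change was derived as its size divided by the square root of the F statistic. CPM used TMM sizes over all 36 libraries. Nothing but the study's methods says that libraries came from separate mice, so p-values measure the spread between these libraries. Log2 ratios of counts within libraries (0.5 added) were compared by permutation. The scripts were tested on simulated counts. No library pair agreed within sampling noise.

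Alternatives were DESeq2 v1.42.0, its size factors, a likelihood ratio test, scaling by total counts, no filter, surrogate variables (sva v3.50.0), removal of a GC trend, a replicate block and omission of each library. The total counts used for scaling include Gm12415. The share of all genes that DESeq2 called is not given here, so its counts of genes stand without that background. Among single edgeR comparisons, an unadjusted p under 0.05 was found for 691 of 18025 genes (Lgr5 GL, 1w pw2 against 8w pw1) up to 4190 of 13980 genes (progenies at 8w pw1). Gene positions, lengths and sequences came from GENCODE M21 on GRCm38, which named 20055 and 22436 of the listed genes. The 4 genes and all lists were chosen with earlier results of these data known. Genes of lists were named where called, up to 6 a list, and 5 genes a member by likeness among genes with a mean of at least 20 CPM. Genes of these lists that are withheld here are counted but not reported by name.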

Additional observations from a re-analysis of the deposited data

Results flagged for a closer look

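Trp63 libraries at 8w pw1 lay on opposite sides of those of 0w in the progenies. In Lrig1 GL cells each library of 8w pw1 lay above each of 0w (log2 difference 1.00), and in Lgr5 GL cells each lay below (-0.48). Neither difference passed on its own (adjusted p = 0.0835 and 1.00 in edgeR). The difference between them was 1.53 (SE 0.48, adjusted p = 0.0848), and 1.87 (adjusted p = 0.0368) without Lrig1 0w replicate 2. Of 36 omissions of a library 35 left it uncalled in edgeR, with values down to 1.28 and an adjusted p of up to 0.202. Under the 7 other settings it was 0.40 to 1.62 (adjusted p 0.0307 to 0.769), and 2 of them passed. Against 0w, 27.6% (Lrig1 GL) and 11.5% (Lgr5 GL) of genes had groups without overlap at this time. With a GC trend removed the values were 0.37 and -0.53 and the difference was 0.86 (adjusted p = 0.433).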

How the results depend on the processing

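Of 860 values of single genes recomputed under other settings, 745 kept their direction and side of the threshold, 43 lost a call, 17 gained one and 55 changed sign. Under omission of a library the numbers were 2757, 73, 5 and 45. No called value changed sign under any setting. Counts that moved by over 1.5 times are given here, and the cause was not tested. Against 0w, the 2 calls in Lrig1 GL cells became 5 with DESeq2, 1 with total counts, 0 with surrogate variables and 1 with a GC trend removed (0 to 2 under omissions). The 3 in Lgr5 GL cells became 1 with total counts and 1 with surrogate variables (1 to 3). Over the time course, the 1 call in Lrig1 GL cells became 2 with DESeq2 and 0 with surrogate variables, a GC trend removed, or the known-number libraries (0 to 1), and the 2 in Lgr5 GL cells became 1 with surrogate variables (2 to 3). Between later times the 4 calls in Lgr5 GL cells became 1 with total counts and 0 with surrogate variables (1 to 4). The 11 calls between progenies became 1 with surrogate variables (9 to 12), and the 0 differences of change became 1 with a likelihood ratio test and 2 with DESeq2 (0 to 1). The 3 within-library ratios that passed held under all settings run, but they are not independent of each other. The 0 calls between later times in Lrig1 GL cells held under all settings as well.

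Replicate numbers were known for 15 libraries, and same-numbered libraries did not deviate together (12 pairs, r from -0.07 to 0.13, mean 0.0003). A replicate block on these libraries left 0 calls over the Lrig1 GL time course. Krt15 then had an adjusted p of 0.271 at 1w pw1 and 0.142 at 1w pw2 in edgeR, against 0.114 and 0.0719 in the same libraries unblocked, a fit added after seeing the data. The fall of Krt14 in Lgr5 GL cells from 1w pw1 to 1w pw2 (-1.85 under the block) had an adjusted p of 0.255, against 0.101 unblocked. Under the block the difference between progenies in Trp63 to Krt14 was 0.45. No paired analysis was possible for the Lgr5 GL comparisons with 0w, because the 0w columns carry no number that matches the labels.

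With scaling by total counts the median of all genes moved most between the progenies at 1w pw1, from -0.02 to 0.66 (log2). With a GC trend removed it moved most for the difference of change from 0w to 1w pw1, from 0.04 to -0.20. Values that changed sign, none of them called, were as follows for Krt5, Krt14, Krt15 and Trp63. With DESeq2 the values were Lgr5 2w pw1 against 0w Krt14 0.0036, progenies at 1w pw1 Krt14 0.0071, difference of change from 0w to 1w pw1 Krt5 0.082. With its size factors they were Lgr5 2w pw1 against 0w Krt14 0.0036, progenies at 1w pw1 Krt14 0.0071, difference of change from 0w to 1w pw1 Krt5 0.082. Without the filter they were Lgr5 2w pw1 against 0w Krt14 0.0013, progenies at 1w pw1 Krt14 0.0062, difference of change from 0w to 1w pw1 Krt5 0.044. With a GC trend removed they were Lrig1 8w pw1 against 0w Krt14 0.13, Lrig1 1w pw2 against 0w Krt5 0.27, Lrig1 1w pw2 against 1w pw1 Krt5 0.045, Lgr5 2w pw1 against 0w Krt14 0.00046, Lgr5 1w pw2 against 1w pw1 Trp63 -0.087, progenies at 1w pw1 Krt14 0.089, progenies at 1w pw2 Krt5 0.20, difference of change from 0w to 8w pw1 Krt5 0.18, difference of change from 1w pw1 to 1w pw2 Krt15 0.28. With surrogate variables they were Lrig1 1w pw1 against 0w Trp63 -0.017, Lrig1 8w pw1 against 0w Krt14 0.10, Lrig1 1w pw2 against 0w Krt5 0.20, Lgr5 1w pw1 against 0w Trp63 0.12, Lgr5 2w pw1 against 0w Krt14 0.19 and Trp63 -0.34, Lgr5 4w pw1 against 0w Krt14 0.34 and Trp63 -0.50, Lgr5 1w pw2 against 1w pw1 Trp63 -0.42, Lgr5 4w pw1 against 1w pw1 Trp63 -0.61, progenies at 0w Trp63 -0.30, progenies at 1w pw1 Krt14 0.78 and Trp63 -0.44, progenies at 1w pw2 Krt5 0.16, difference of change from 0w to 1w pw1 Krt5 0.075 and Trp63 -0.14, difference of change from 0w to 8w pw1 Krt5 0.049, difference of change from 1w pw1 to 1w pw2 Krt15 0.75. With scaling by total counts they were Lrig1 2w pw1 against 0w Krt5 -0.014, Lrig1 1w pw2 against 0w Krt14 -0.076, Lgr5 2w pw1 against 0w Krt14 0.25, Lgr5 4w pw1 against 0w Krt14 0.064, Lgr5 8w pw1 against 0w Krt5 0.24, Lgr5 1w pw2 against 0w Krt5 0.15 and Krt14 0.051 and Trp63 0.33, progenies at 1w pw1 Krt5 0.015 and Krt14 0.63, progenies at 2w pw1 Trp63 0.0087, progenies at 4w pw1 Trp63 0.062, difference of change from 0w to 1w pw1 Krt5 0.026, difference of change from 0w to 8w pw1 Krt14 -0.55, difference of change from 0w to 1w pw2 Krt5 -0.51 and Krt14 -0.13, difference of change from 1w pw1 to 1w pw2 Krt5 -0.53 and Trp63 -0.37. Omission of single libraries turned the sign of uncalled values in these ranges: Lrig1 2w pw1 against 0w Krt5 -0.10 to 0.26, Lrig1 2w pw1 against 0w Trp63 -0.63 to 0.055, Lrig1 1w pw2 against 0w Krt14 -0.13 to 0.23, Lrig1 1w pw1 against 0w Trp63 -0.068 to 0.56, Lgr5 2w pw1 against 0w Krt14 -0.61 to 0.23, Lgr5 8w pw1 against 0w Krt5 -0.21 to 0.087, Lgr5 1w pw2 against 0w Trp63 -0.21 to 0.065, Lgr5 1w pw2 against 1w pw1 Trp63 -0.0073 to 0.40, Lgr5 4w pw1 against 0w Krt14 -0.24 to 0.019, Lgr5 4w pw1 against 0w Trp63 -0.17 to 0.48, Lgr5 1w pw2 against 8w pw1 Krt14 -0.068 to 0.11, progenies at 0w Trp63 -0.015 to 0.58, difference of change from 0w to 1w pw1 Krt5 -0.14 to 0.11, difference of change from 0w to 8w pw1 Krt14 -0.23 to 0.21, difference of change from 1w pw1 to 1w pw2 Krt15 -0.58 to 0.85, difference of change from 0w to 1w pw2 Krt5 -0.057 to 0.19, difference of change from 1w pw1 to 1w pw2 Krt5 -0.016 to 0.19, progenies at 1w pw1 Krt14 -0.18 to 0.0068, progenies at 4w pw1 Trp63 -0.55 to 0.059. The lowest count of a keratin in any library was 196, and the 3 libraries a group limit the precision.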
